A study of Mus musculus with 14 samples.

Results

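Liver sinusoidal endothelium was represented by 34 marker genes, listed by name. An ATAC-seq interval was given to a member when its midpoint lay inside that gene. Otherwise it went to the nearest protein-coding gene within 50 kb, in the mm10 RefSeq annotation. By that rule the members held 198 of 88203 intervals in the chow table and 292 of 105801 in the high-fat diet (HFD) table. All 34 members had an interval on HFD, and 33 had one on chow, where Emcn had none. The members are among 16695 protein-coding genes that received an interval in either table.

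ATAC-seq marks open chromatin by letting a transposase cut and tag accessible DNA. Nuclei came from frozen livers of 14 female mice, with 50 mg used per liver. Floxed mice carried a loxP-flanked Matr3 gene, which encodes matrin 3, a nucleic acid binding protein of the nuclear matrix. Liver-specific knockout (LKO) littermates carried the same floxed gene and an Albumin-Cre transgene. Its promoter is active in hepatocytes, so endothelial cells are not the cells it is meant to recombine, and since the floxed mice are not described as carrying Cre, a Cre effect and the deletion cannot be told apart. Diets started at 7 weeks of age and ran for 16 weeks. On chow there were 3 LKO and 3 floxed mice. On HFD, with 60 kcal% fat, there were 4 LKO and 4 floxed mice, fasted for 12 h before collection, while no source used here gives the feeding state of the chow mice. Counted reads per library ran from 15.5 to 35.0 M on chow and from 7.59 to 10.4 M on HFD. The Matr3 gene itself, the check on the labels, had 7 intervals in each table and none was called. Its summed level was 83.5 to 89.0 CPM in LKO and 89.5 to 92.6 CPM in floxed livers on chow, and 72.1 to 80.8 CPM against 69.5 to 98.2 CPM on HFD. Open chromatin at the locus does not show whether the gene was recombined.

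Sinusoidal endothelial cells line the liver's capillaries. They lack a basement membrane, are pierced by fenestrae, clear macromolecules from blood through scavenger receptors, and send WNT, R-spondin and BMP signals to neighbouring hepatocytes. Their vascular identity is kept by ETS factors such as ERG and FLI1, by SOX17 and SOX18, and, for the sinusoidal form, by GATA4 and MAF. Several members are not private to this cell type: Mrc1 and Maf are also used by Kupffer cells, Gata4 by stellate cells, and Vwf and Plvap mainly by endothelium of larger vessels. The tissue was whole liver, so reads at these intervals are not assigned to a cell type. Fewer endothelial nuclei, less accessibility per nucleus and signal from other cells cannot be told apart.

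Promoter sequence from RefSeq (GRCm38.p6, the mm10 assembly) was at hand for 17 of the 34 members, as 21 windows from 250 bases before to 50 bases after a start site. ETS core letters were searched because ETS factors are members themselves. Each motif was read on both strands. The ETS core CGGAAG stood in 2 of the 21 member windows against 16.9% of all 32851 windows of this length. The ETS core AGGAAG stood in 12 against 35.4%. A window with either core was found for 11 of the 17 genes. Counted by window, 12 of the 21 member windows held either core, against 46.5% of all windows. The GATA motif AGATAA stood in 2 member windows against 11.2% of all. The SOX motif ACAATG was in 2 against 12.6%, and the second SOX motif, ACAAAG, in 3 against 18.7%. The KLF motif GGGTGTG was in 1 against 7.95%, and a partial MAF site, TGCTGA, in 6 against 19.5%. No motif searched contains another. A match is a run of letters and not a shown binding site. The 4 windows printed here belong to members whose accessibility is described in detail, and they hold 3, 3, 2 and 2 ETS core matches. Windows of other members described per library are not printed. Among them, Flt4 and Tek held 0 matches, the Erg windows 0, 0 and 1, and Emcn 2. Each reads 5′ to 3′ on the strand of its gene, with ETS core matches on either strand in capitals.
Tie1, chr4:118489800-118490099, minus strand: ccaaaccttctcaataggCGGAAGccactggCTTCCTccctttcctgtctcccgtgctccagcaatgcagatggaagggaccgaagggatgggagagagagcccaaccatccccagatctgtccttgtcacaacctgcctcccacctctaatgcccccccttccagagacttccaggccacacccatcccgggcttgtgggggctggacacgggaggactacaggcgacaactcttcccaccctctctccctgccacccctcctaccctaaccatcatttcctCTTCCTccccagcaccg
Clec4g, chr8:3720602-3720901, minus strand: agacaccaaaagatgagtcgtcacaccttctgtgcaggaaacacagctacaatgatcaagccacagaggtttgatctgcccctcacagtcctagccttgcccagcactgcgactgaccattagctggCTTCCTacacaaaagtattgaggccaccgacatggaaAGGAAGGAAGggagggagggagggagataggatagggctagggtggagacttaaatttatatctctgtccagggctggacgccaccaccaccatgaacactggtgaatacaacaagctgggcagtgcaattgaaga
Eng, chr2:32646345-32646644, plus strand: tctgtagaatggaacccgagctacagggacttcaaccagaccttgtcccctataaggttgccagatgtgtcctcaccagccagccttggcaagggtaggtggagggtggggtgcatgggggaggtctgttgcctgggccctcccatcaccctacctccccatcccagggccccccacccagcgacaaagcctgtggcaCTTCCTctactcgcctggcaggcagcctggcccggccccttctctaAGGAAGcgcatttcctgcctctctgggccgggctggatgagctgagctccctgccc
Stab1, chr14:31168592-31168891, minus strand: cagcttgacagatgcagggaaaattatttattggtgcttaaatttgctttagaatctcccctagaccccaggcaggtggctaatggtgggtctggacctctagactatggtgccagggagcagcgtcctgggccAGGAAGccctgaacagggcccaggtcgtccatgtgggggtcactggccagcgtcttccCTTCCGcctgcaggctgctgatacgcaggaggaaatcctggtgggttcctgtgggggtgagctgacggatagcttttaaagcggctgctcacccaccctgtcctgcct
The Tie1 window overlapped an interval in both tables, and so did the Clec4g window. The Eng and Stab1 windows overlapped one in the HFD table alone, where the Eng start interval lay at chr2:32646324-32646824. Over the 21 member windows, 57.1% overlapped an interval on chow and 76.2% on HFD, against 41.5% and 42.9% of all windows. Intervals over these starts were at 4.60 to 17.4 CPM on chow (12 intervals) and 5.09 to 12.9 CPM on HFD (16 intervals). Their log2 fold changes ran from -0.47 to 0.29 on chow and from -0.38 to 0.25 on HFD, and none was called (lowest adjusted p 0.763 and 0.573, edgeR).

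Members were moderately accessible in bulk liver. Levels are counts scaled to library size with TMM factors (CPM), and since all intervals have the same width, levels of single intervals can be compared between genes. The median member interval stood at 7.04 CPM on chow against 7.97 CPM for all intervals, and at 6.37 CPM against 6.74 CPM on HFD. The most accessible interval of each gene, its lead interval, ranged on chow from 4.47 CPM at Plvap (the diaphragm protein of fenestrae) to 27.9 CPM at Esam, an adhesion molecule of endothelial junctions. On HFD the range was 4.71 CPM at Emcn, a surface sialomucin, to 24.4 CPM at Wnt9b, a WNT ligand made by central vein and sinusoidal endothelium. Gata4, Maf, Wnt9b and Esam had lead levels above 20 CPM in both tables, and Lyve1 had such a level on chow, at 23.4 CPM. Most member intervals were not at start sites: 66.7% lay inside the gene on chow and 66.8% on HFD, close to the shares of all assigned intervals (68.0% and 68.6%). Those within 1 kb of a gene end made up 16.7% and 15.1% of member intervals, against 23.7% and 21.7% of all. Exons and introns were not annotated in the table used. Egfl7, a secreted vascular matrix protein, had the most intervals, 20 on chow and 27 on HFD, of which 10 and 8 lay inside the gene. Stab2, the hyaluronan scavenger receptor, followed with 16 and 20, of which 14 and 18 lay inside.

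On chow, LKO livers had lower values than floxed livers at 27 of 33 members, but no member gene was called. A gene or interval is called when its Benjamini-Hochberg adjusted p from edgeR's quasi-likelihood test is under 0.05 over the whole table, and fold changes are log2 of LKO over floxed. Reads were summed over the intervals of each gene for the gene values. The median over members was a log2 fold change of -0.15, against -0.01 for all genes, and 51.3% of all genes were lower in LKO. Over the whole chow table the same test called 0 of 15930 genes, that is 0% (1044 at an unadjusted p under 0.05, 39 by DESeq2 and 1 by limma). Of the members, 2 had an unadjusted p under 0.05, Sox17 and Eng, and none was called by DESeq2 or limma. Adjusted p ran from 0.718 to 0.946. When the replicate number was a block in the fit, which then called 8 genes of all, no member was called (lowest adjusted p 0.104). In that fit 12 members had an unadjusted p under 0.05, or 36.4% against 22.7% of all genes, and 11 of these were lower in LKO.

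**Figure D1:**
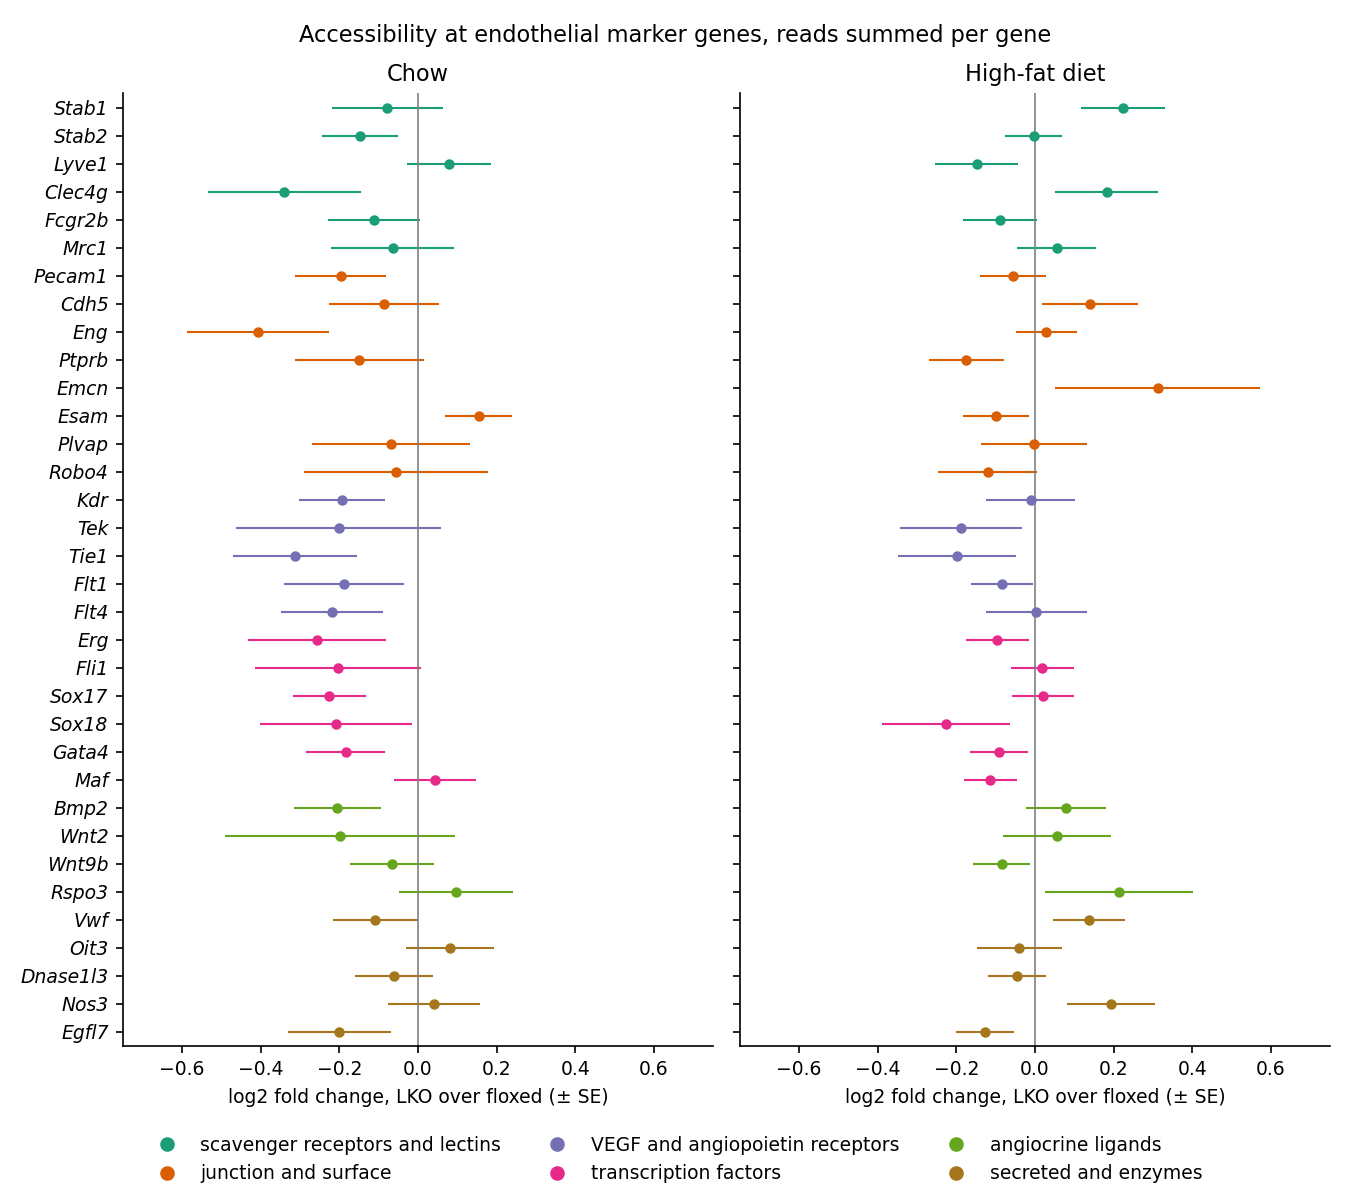
Log2 fold change of LKO over floxed for reads summed per member gene, with its standard error, on chow (left, 3 against 3) and HFD (right, 4 against 4), coloured by role. On chow 27 of 33 points lie left of 0, and on HFD 20 of 34, and no point was called in either diet.

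Among receptors for vascular growth factors, all 5 members had lower chow values in LKO, with log2 fold changes from -0.31 to -0.19. Tie1, the orphan partner receptor of TIE2, was at 21.1, 30.9 and 20.3 CPM in LKO livers 1 to 3, and at 28.4, 30.5 and 30.3 CPM in floxed livers. LKO 1 and 3 lay below every floxed library and LKO 2 above them all, so the groups overlapped (log2 fold change -0.31, SE 0.16, adjusted p 0.718, edgeR). Flt4, the VEGF-C receptor VEGFR3, was at 27.9, 38.3 and 30.1 CPM in LKO and 34.8, 40.8 and 36.2 CPM in floxed livers. Again LKO 2 was inside the floxed range and the other LKO libraries below it (-0.22, SE 0.13). Kdr (VEGFR2), Flt1 (VEGFR1) and Tek (the angiopoietin receptor TIE2) had log2 fold changes of -0.19, -0.19 and -0.20, with SE of 0.11, 0.15 and 0.26.

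Junction and surface members were more mixed, with 6 of 7 lower on chow and log2 fold changes from -0.41 to 0.15. Eng encodes endoglin, a co-receptor for BMP9 and TGF-beta signals on endothelium. Its summed level was 23.7, 39.7 and 24.8 CPM in LKO livers and 35.8, 40.0 and 40.0 CPM in floxed livers. LKO 1 and 3 were far below the floxed range and LKO 2 within it (-0.41, SE 0.18, adjusted p 0.718, edgeR), the largest change of a member on chow. Leaving out LKO 2 moved it to -0.67, and leaving out LKO 1 or LKO 3 to -0.27 or -0.30. Within same-numbered pairs LKO was the lower library in all 3. Esam, at 58.0, 62.8 and 66.7 CPM in LKO and 53.4, 59.0 and 56.3 CPM in floxed livers, had the highest fold change (0.15, SE 0.08). Pecam1, Cdh5 (VE-cadherin), Ptprb, Plvap and Robo4 lay between -0.20 and -0.06.

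Of the 6 transcription factors, 5 were lower on chow and Maf was at 0.04. Sox17, an arterial and sinusoidal identity factor, was at 42.9, 51.3 and 43.7 CPM in LKO and 53.7, 51.6 and 55.5 CPM in floxed livers. It was the 1 member of 33 whose groups did not overlap with LKO lower, though LKO 2 and floxed 2 nearly met; 5.95% of all genes had that pattern and 6.03% the opposite one. Its log2 fold change was -0.23 (SE 0.09, adjusted p 0.718, edgeR). Erg was at 35.0, 53.8 and 34.9 CPM in LKO against 45.9, 57.5 and 43.9 CPM in floxed livers (-0.26, SE 0.18). Sox18, which directs lymphatic and vascular development, had 1 chow interval, its midpoint outside the gene. It was at 6.42, 7.86 and 6.0 CPM in LKO against 6.98, 9.07 and 7.34 CPM in floxed livers (-0.21, SE 0.19). In both of these LKO 2 lay among the floxed libraries. Fli1 and Gata4 had fold changes of -0.20 and -0.18.

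Scavenger receptors and lectins, the clearance machinery, had 5 of 6 lower on chow. Clec4g, a sinusoidal C-type lectin, was at 14.6, 22.8 and 14.97 CPM in LKO livers and 19.2, 26.3 and 20.4 CPM in floxed livers. LKO 2 once more stood within the floxed range and the other LKO libraries below it (-0.34, SE 0.19, adjusted p 0.718, edgeR). Without LKO 2 the value was -0.56, and without floxed 2, LKO 1 or LKO 3 it was -0.20, -0.23 or -0.24. LKO was lower in all 3 same-numbered pairs. Stab2 was at -0.15, Fcgr2b (an inhibitory Fc receptor) at -0.11, Stab1 at -0.08, Mrc1 (the mannose receptor) at -0.06, and Lyve1, a hyaluronan receptor, at 0.08. Among angiocrine ligands, Bmp2, which induces hepcidin in hepatocytes, was at 31.6, 39.2 and 31.3 CPM in LKO and 37.4, 41.8 and 38.2 CPM in floxed livers. Here too LKO 2 lay within the floxed range (-0.21, SE 0.11). Wnt2 and Wnt9b, which sustain pericentral hepatocyte programmes, were at -0.20 and -0.07, and Rspo3, which strengthens WNT signals, at 0.10. Secreted proteins and enzymes lay between -0.20 at Egfl7 and 0.08 at Oit3, with Vwf (von Willebrand factor), Dnase1l3 (a secreted DNase) and Nos3 (endothelial nitric oxide synthase) between them.

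The same library stood out over the members. LKO 2 was the highest of the 3 LKO libraries at 25 of 33 members, and floxed 2 the highest floxed library at 24. Over all genes each did so at 40.9% and 40.2%. Both libraries also had the fewest reads, 15.5 and 17.1 M, against 31.3 to 35.0 M for the others. LKO 1 and 3 were both below all 3 floxed libraries at 20 of 33 members, and at 20.5% of all genes. This pattern leaves out LKO 2, the library just described, so it is a description and not a test. With all 3 LKO libraries it held at 1 of 33 members, against 5.95% of all genes. The labels do not state that equal numbers pair samples. Set against the library of the same number, LKO was lower in all 3 pairs at 13 members and in 2 pairs at 14, or 39.4% and 42.4% of members, against 23.6% and 27.4% of all genes. The 13 were Clec4g, Pecam1, Kdr, Flt1, Flt4, Eng, Erg, Fli1, Sox17, Sox18, Gata4, Bmp2 and Egfl7, while Maf and Esam were higher in LKO in every pair. The members' median gene fold change of -0.15 moved either way with single libraries. It became -0.25 without LKO 2, where 15 members had an unadjusted p under 0.05 (16.2% of all genes had). It became -0.07 without LKO 3, -0.08 without floxed 2 and -0.10 without LKO 1, where 1, 2 and 0 members had one. Of all genes 2.23%, 4.85% and 3.57% had one in these fits. Without floxed 1 or floxed 3 the median was -0.16 in each, with 1 and 0 members at that p (3.14% and 10.7% of all genes). Without both libraries numbered 2 it was -0.24, with 10 members at that p (13.3% of all genes). No member was called in any of these fits.

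**Figure D2:**
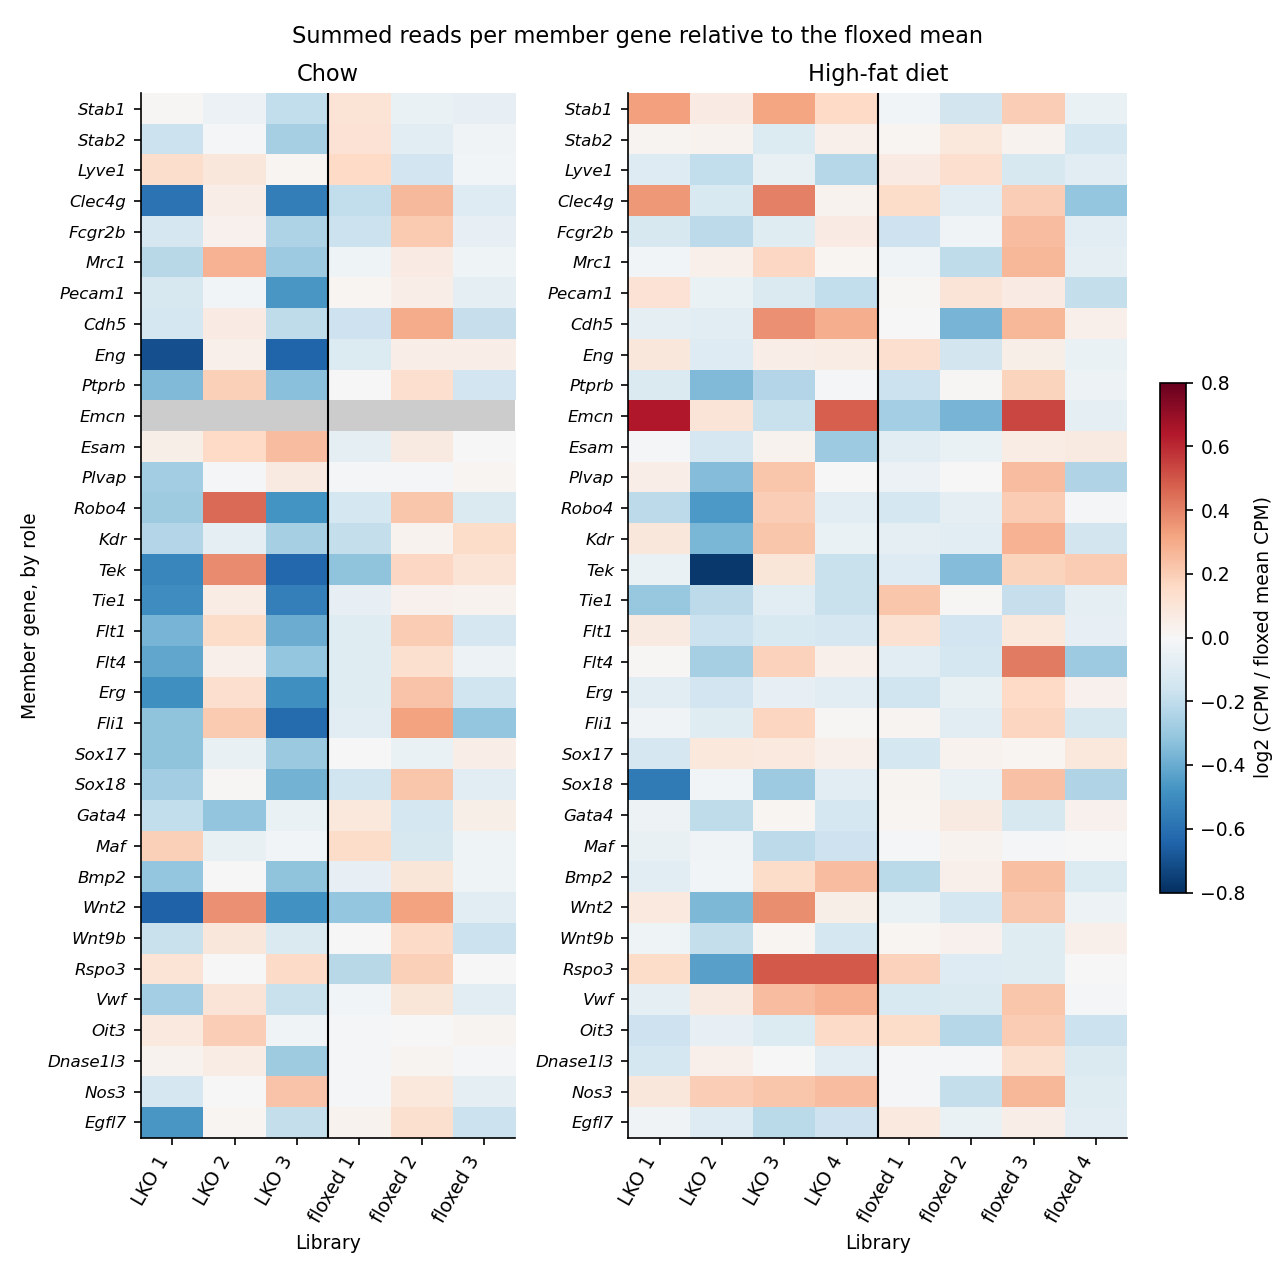
Each cell is the log2 ratio of a library's summed level (CPM) at a member gene to the mean of the floxed libraries of its diet; grey marks Emcn, which had no chow interval. Chow LKO 1 and 3 are blue over most rows while LKO 2 and floxed 2 are pale to red, and HFD floxed 3 is red over most rows.

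Single intervals were tested as well. Of the 88203 chow intervals 20 were called, that is 0.0227%, and 0 of the 198 member intervals were (13 at an unadjusted p under 0.05). DESeq2 called 544 intervals of all, or 0.617%, and no member. limma called 677, or 0.768%, and 4 members, or 2.02%. All 13 with an unadjusted p under 0.05 were lower in LKO, and they made up 6.57% of member intervals against 6.77% of all intervals at that p. With the replicate block 126 intervals of all were called and no member interval (lowest adjusted p 0.129). In that fit 28 member intervals had an unadjusted p under 0.05, or 14.1% against 15.9% of all. Without the block, LKO was lower at 151 member intervals and higher at 47. The median log2 fold change was -0.14 against -0.00 over all intervals. The groups did not overlap at 20 member intervals with LKO lower and 5 with LKO higher, where 6.04% and 5.63% of all intervals had these patterns. Interval names record the genotype in whose peaks they were called: 68.2% of member intervals were named for floxed peaks, against 50.1% of all. Among those named for LKO peaks, 31 of 63 were lower in LKO (49.2%), against 23.6% of all such intervals. Among those named for floxed peaks 88.9% were, against 77.4%. Those peaks come from the same libraries as the counts. Names and direction are therefore not independent, and these shares are no separate evidence.

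The member interval with the smallest unadjusted p on chow lay inside Stab2 at chr10:86923633-86924133, 84.1 kb downstream of its start. It was at 10.5, 12.1 and 10.9 CPM in LKO and 16.3, 15.5 and 17.8 CPM in floxed livers. The groups were well apart here, LKO 2 included (log2 fold change -0.57, SE 0.15, adjusted p 0.364, edgeR). limma, which weights libraries by quality, called it (-0.61, adjusted p 0.0453) together with 3 neighbouring intervals inside Egfl7, named here because that tool called them. The middle one, chr2:26591347-26591847, was at 10.1, 13.6 and 10.2 CPM in LKO and 18.6, 15.7 and 15.4 CPM in floxed livers. Its groups did not overlap either (-0.56, SE 0.17, adjusted p 0.495, edgeR). An Eng interval at chr2:32665852-32666352 was at 4.41, 6.96 and 5.04 CPM in LKO and 7.83, 10.1 and 8.36 CPM in floxed livers, again with no overlap (-0.69, SE 0.21, adjusted p 0.506, edgeR). All 5 chow intervals of Eng were lower in LKO.

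On HFD the members' median difference was near 0. LKO was lower at 20 of 34 genes and higher at 14, with a median log2 fold change of -0.03 against -0.00 for all genes. No member gene was called or had an unadjusted p under 0.05 in edgeR, and none was called by DESeq2 or limma. The table as a whole gave 56 called genes of 16277, or 0.344%, and 10.01% of all genes had an unadjusted p under 0.05. Adjusted p of the members ran from 0.504 to 0.998, and fold changes from -0.23 to 0.31. Floxed 3 was the highest floxed library at 20 of 34 members (31.9% of all genes), and LKO 2 the lowest LKO library at 18 (24.6% of all genes). Without floxed 3 the median turned to 0.02 and 14 members were lower.

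Emcn had the highest fold change, from a single interval 47.8 kb before its start. It was at 6.58, 4.53, 3.73 and 5.89 CPM in LKO livers 1 to 4 and 3.50, 3.27, 6.13 and 4.0 CPM in floxed livers. The groups overlapped widely (0.31, SE 0.26). Stab1, a scavenger receptor for modified lipoproteins and extracellular debris, was at 30.2, 25.2, 29.9 and 27.0 CPM in LKO and 23.7, 21.8, 27.6 and 23.2 CPM in floxed livers. Only floxed 3 reached into the LKO range (0.22, SE 0.11, adjusted p 0.504, edgeR). Clec4g was at 35.2, 25.5, 36.7 and 28.3 CPM in LKO and 30.8, 26.1, 31.8 and 22.4 CPM in floxed livers, with overlapping groups (0.18, SE 0.13). For Eng the summed level was 72.3 to 82.9 CPM in LKO and 70.3 to 85.2 CPM in floxed livers (0.03, SE 0.08).

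Among growth factor receptors on HFD, Tie1 was at 9.66, 10.3, 11.2 and 10.5 CPM in LKO and 13.9, 12.0, 10.5 and 11.3 CPM in floxed livers (-0.20, SE 0.15). Tek was at 28.3, 17.2, 31.5 and 26.0 CPM in LKO and 27.4, 23.1, 33.3 and 33.8 CPM in floxed livers (-0.19, SE 0.16). The groups overlapped in both, and LKO 2 was the lowest library at Tek. Flt1, Kdr and Flt4 lay between -0.08 and 0.00. Sox18 was at 8.49, 12.4, 10.3 and 11.8 CPM in LKO and 12.8, 12.1, 14.8 and 10.6 CPM in floxed livers (-0.23, SE 0.16). Maf was the 1 member whose groups did not overlap, at 112 to 126 CPM in LKO and 128 to 131 CPM in floxed livers (-0.11, SE 0.07, adjusted p 0.630, edgeR), and 2.56% of all genes had that pattern, with 2.53% the opposite one. Of the 13 HFD intervals of Maf, 2 lay inside the gene. Rspo3 was at 11.6, 7.71, 14.6 and 14.7 CPM in LKO and 11.9, 9.70, 9.76 and 10.4 CPM in floxed livers (0.21, SE 0.19). Nos3 was at 24.8, 26.7, 27.2 and 27.7 CPM in LKO and 23.1, 20.4, 28.0 and 21.8 CPM in floxed livers (0.19, SE 0.11). At Nos3 floxed 3 was above every LKO library and the other floxed libraries below them all.

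One member interval was called on HFD, of 292, where 795 of all 105801 intervals were, or 0.751%. It lay inside Eng at chr2:32667737-32668237, 21.4 kb downstream of the start. Its level was 2.04, 2.76, 1.96 and 2.27 CPM in LKO livers and 6.74, 4.10, 4.27 and 5.42 CPM in floxed livers. Every LKO library lay below every floxed one, a fall of 1.18 on the log2 scale (SE 0.29, adjusted p 0.0445, edgeR). The call was narrow: it was kept when floxed 3 was left out (adjusted p 0.0323) and lost when any other library was (0.0561 to 0.181), and lost with limma (0.0873). DESeq2 kept it (0.0257). The interval is weak, near the low end of member levels, and the other 10 HFD intervals of Eng had fold changes from -0.11 to 0.32. A neighbour at chr2:32665871-32666371 was at 7.39 to 12.9 CPM in LKO and 7.41 to 8.88 CPM in floxed livers (0.32, SE 0.19).

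**Figure D3:**
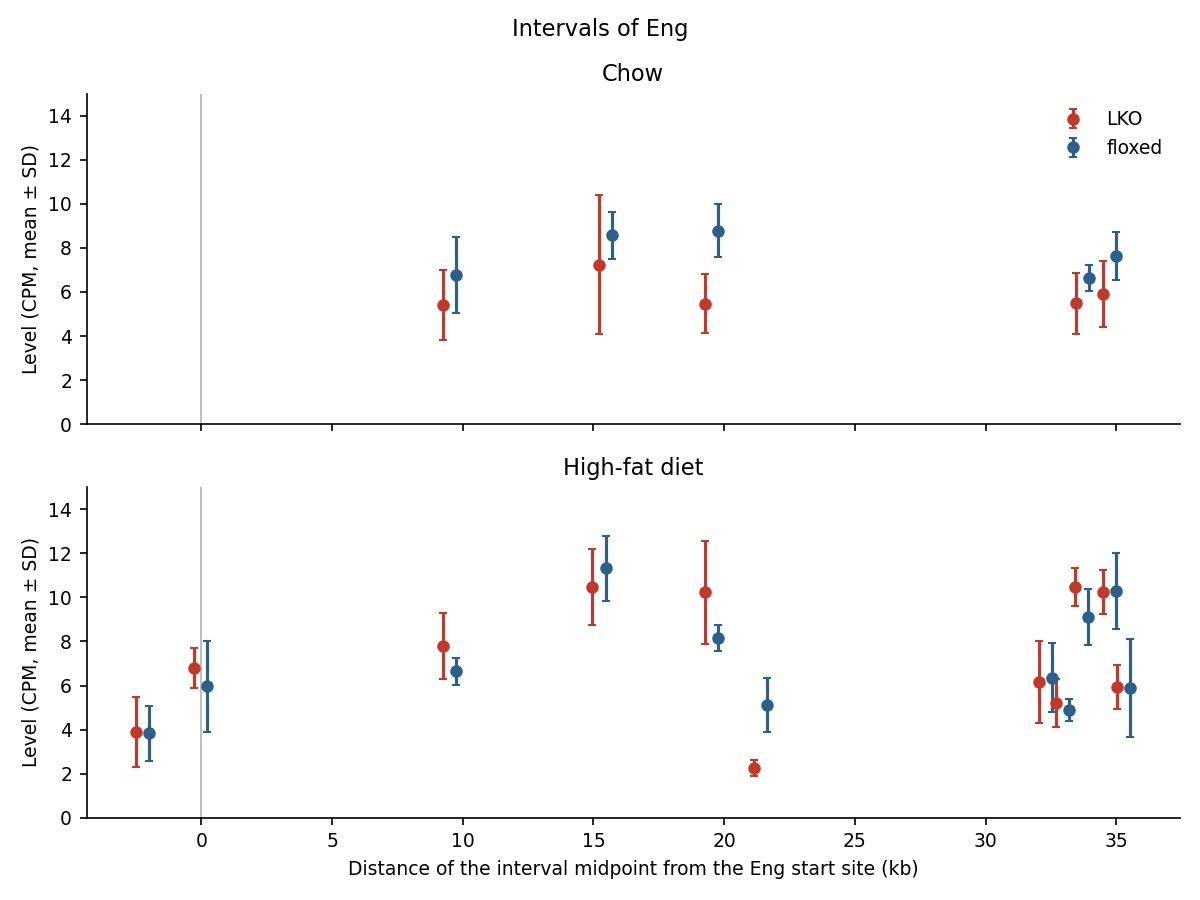
Mean level (CPM) and SD of each Eng interval in LKO and floxed livers against the distance of its midpoint from the start site, in kb, on chow (top) and HFD (bottom); points of the same interval are set slightly apart. On HFD the groups separate at the interval 21.4 kb downstream, while on chow LKO means are the lower ones at all 5 intervals.

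Other HFD member intervals were not called (next lowest adjusted p 0.171, edgeR), 22 had an unadjusted p under 0.05 (7.53%, against 10.2% of all intervals), 12 lower and 10 higher. The groups did not overlap at 8 member intervals with LKO lower and at 8 with LKO higher, against 2.5% and 2.8% of all intervals. The lead intervals of Wnt9b and Nos3 are given as examples chosen after their values were seen. The Wnt9b one, chr11:103735438-103735938, was at 23.8, 17.4, 20.5 and 22.6 CPM in LKO and 25.3, 30.2, 27.0 and 28.2 CPM in floxed livers (-0.39, SE 0.13, adjusted p 0.171, edgeR). The Nos3 one, chr5:24383457-24383957, went the other way, at 15.3, 14.6, 17.8 and 14.1 CPM in LKO and 12.4, 11.5, 11.1 and 9.45 CPM in floxed livers (0.48, SE 0.16, adjusted p 0.196, edgeR). LKO and floxed libraries did not overlap in either. LKO was lower at 160 member intervals and higher at 132, with a median of -0.02. The share named for floxed peaks was 54.8%, against 50.5% of all.

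**Figure D4:**
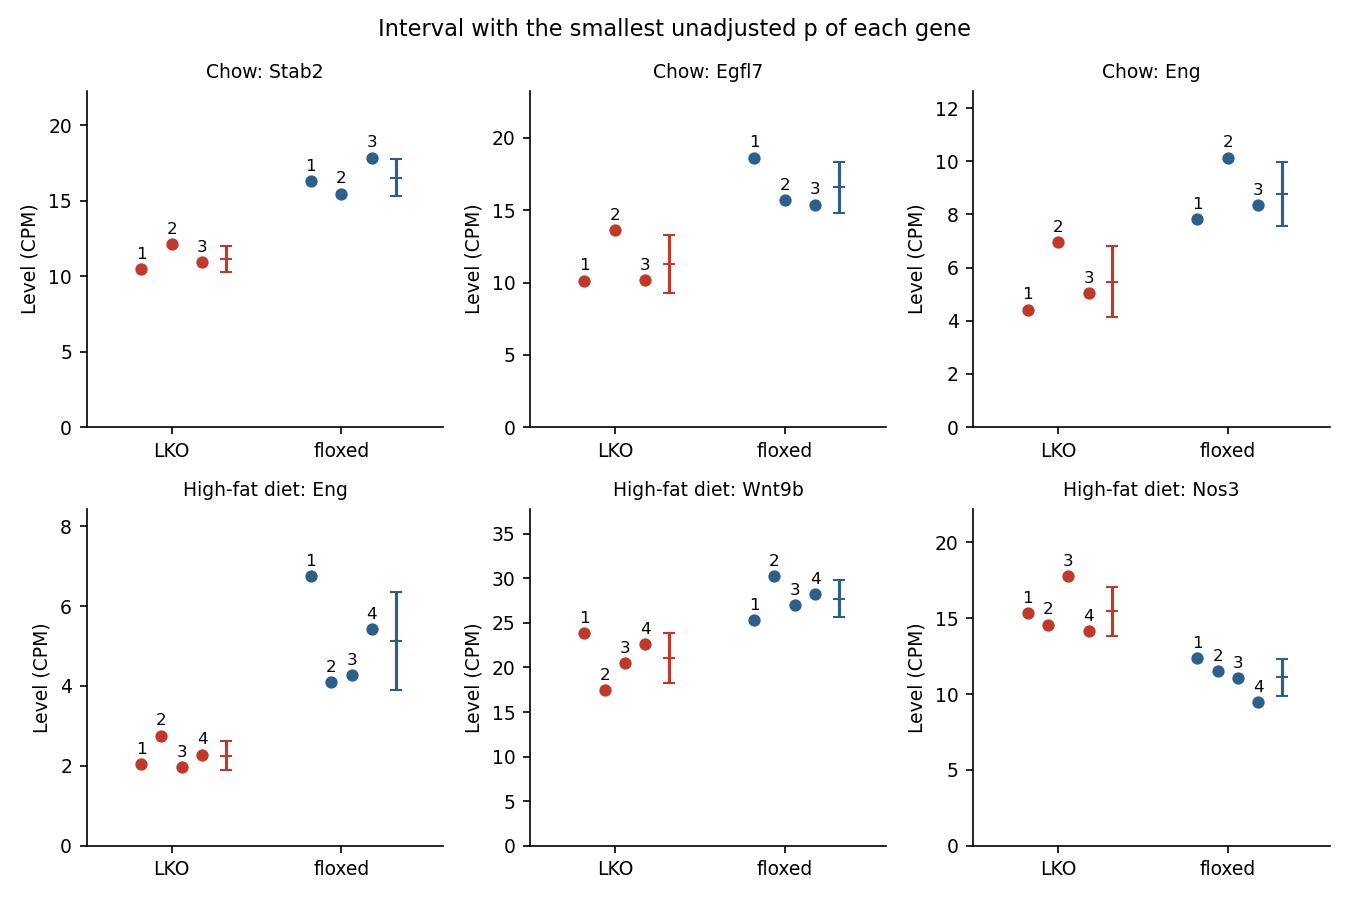
Level (CPM) in each numbered library, with mean and SD at the side, of the interval with the smallest unadjusted p for Stab2, Egfl7 and Eng on chow and for Eng, Wnt9b and Nos3 on HFD; axes start at 0. Intervals were picked by p, and Wnt9b and Nos3 after their values were seen. The groups do not overlap in any panel, which is therefore no separate evidence. The Eng interval on HFD is the 1 that was called.

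Whether the LKO effect at members differed between diets was tested on 73945 intervals matched between the tables, 170 of them members. The HFD effect minus the chow effect was called at 133 of all matched intervals, or 0.18%, and at 0 of the 170, also by DESeq2. An unadjusted p under 0.05 was found at 3 member pairs, or 1.76%, against 7.47% of all matched intervals. Differences at members were above 0 in 119 and below 0 in 51, with a median of 0.16 against 0.00 over all, where 50.3% were above 0. The smallest p belonged to the Eng pair 19.5 kb downstream of the start, described above for each diet, where the log2 fold change was -0.69 on chow and 0.32 on HFD (difference 1.03, SE 0.28, adjusted p 0.209, edgeR). Each diet has tables and libraries of its own, so diet and the making of the libraries cannot be told apart in the levels. Fasting was stated for HFD alone and read depth differed, so a difference in LKO effect could not be tied to diet alone.

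Marker lists of the other liver cells were summed in the same way. Each sum is named for its list and does not assign reads to a cell type. On chow the members' summed level was 1522, 1792 and 1513 CPM in LKO and 1751, 1837 and 1683 CPM in floxed livers. The groups overlapped, with a difference of -0.13 between the mean log2 levels. Under the interval table's scaling the difference was -0.11, against a pooled SD of 0.10 between libraries. The hepatocyte list (14 genes, such as Alb and Apob) summed to 8229, 6892 and 6664 CPM in LKO and to 10487, 7021 and 10336 CPM in floxed livers, and 13 of the 14 genes were lower in LKO (median -0.31). Floxed 2 had the lowest hepatocyte sum of its group and the highest endothelial one, while LKO 2 had the highest endothelial sum and a hepatocyte sum between the other LKO libraries. The Kupffer cell list (12 of 18 genes with an interval, such as Clec4f and Csf1r) summed to 190, 222 and 165 CPM in LKO and 208, 243 and 188 CPM in floxed livers, and 11 of its 12 genes were lower in LKO (median log2 fold change -0.14). Stellate cell genes (16 of 17) were at 256 to 312 CPM in LKO and 258 to 315 CPM in floxed livers, lymphocyte genes (10 of 16) at 345 to 370 and 354 to 368 CPM, and cholangiocyte genes (4 of 8) at 206 to 220 and 196 to 220 CPM. Of these, 12 of 16, 7 of 10 and 3 of 4 genes were lower in LKO. No gene of these lists was called on chow. The part of cell make-up in the members' chow values was not tested.

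On HFD the members summed to 2085, 1960, 2142 and 2075 CPM in LKO and to 2103, 2047, 2275 and 2025 CPM in floxed livers. The log2 difference was -0.03 under the interval scaling, against a pooled SD of 0.08. The hepatocyte list was at 6334, 6549, 4411 and 5930 CPM in LKO and 8360, 7591, 5306 and 6733 CPM in floxed livers, with 11 of its 14 genes lower (median -0.24) and 1 called, Ttr (transthyretin), which fell. LKO 3 and floxed 3 had the lowest hepatocyte sum of their groups and the highest endothelial sum. The Kupffer list (15 of 18) was at 319 to 339 CPM in LKO and 275 to 331 CPM in floxed livers, with 12 of 15 genes higher in LKO and none called. Stellate genes (14 of 17) were at 245 to 300 and 216 to 286 CPM, lymphocyte genes (11 of 16) at 310 to 350 and 331 to 354 CPM, and cholangiocyte genes (5 of 8) at 162 to 167 and 157 to 178 CPM. Their part in the members' values was not tested.

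**Figure D5:**
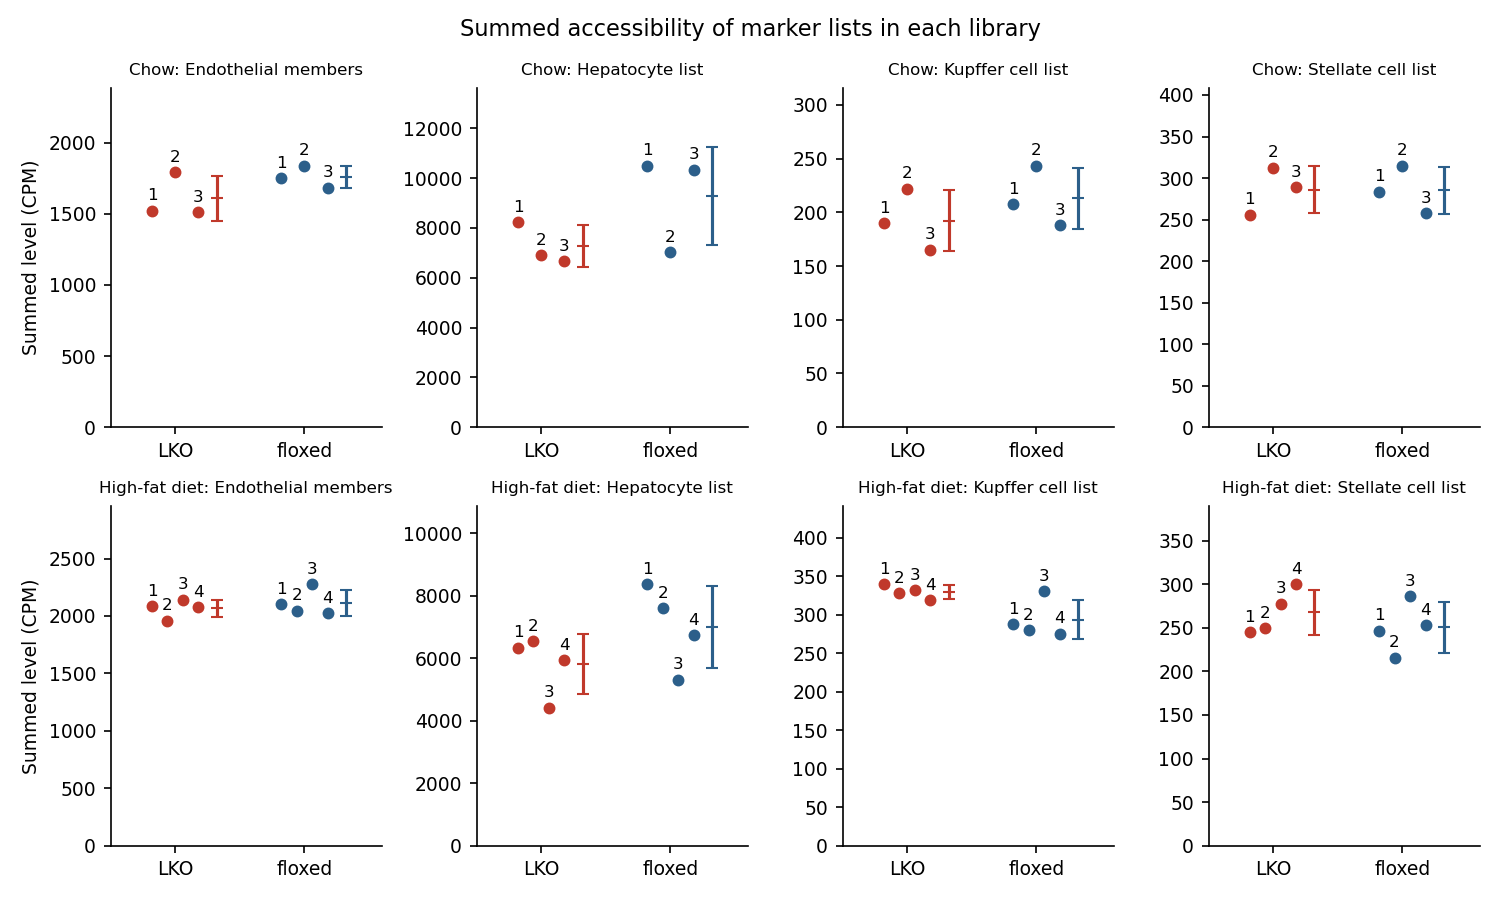
Summed level (CPM) per numbered library, with mean and SD at the side, of the endothelial members and of hepatocyte, Kupffer cell and stellate cell lists on chow (top) and HFD (bottom); every axis starts at 0. Chow LKO 1 and 3 have the 2 lowest endothelial sums, at 1522 and 1513 CPM, and HFD floxed 3 the highest, at 2275 CPM, beside a low hepatocyte sum.

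Endothelial genes outside the members, a list of 52 such as Cldn5, Klf2 and Notch1, gave a smaller chow difference. With 49 having an interval, 31 were lower in LKO and 18 higher, the median log2 fold change was -0.06 (members -0.15, all genes -0.01), and none was called. Among them Ramp2, Gpihbp1 and Adgrl4 were at -0.38, -0.38 and -0.39, and Cd36 and Nrp2 at 0.31 and 0.25. Their summed level was 3182 to 3277 CPM in LKO and 3217 to 3299 CPM in floxed livers. On HFD 36 of the 52 were lower, with a median of -0.05 and none called. Here the summed level was 3472 to 3500 CPM in LKO and 3564 to 3744 CPM in floxed livers, so that every LKO library lay below every floxed one, a difference of -0.06 in mean log2 level. It was the 1 list of those summed whose groups did not overlap, and 16 of the 52 genes were higher in LKO. Of all single genes, 2.56% had that pattern on HFD, and no share was computed for summed lists. Genes with high counts weigh most in a sum. Mean levels in LKO and floxed livers were 224 and 241 CPM at Notch1, 340 and 368 CPM at Nrp2, and 150 and 181 CPM at Hhex. Klf2 went the other way, at 130 and 117 CPM. A list of ligand genes held mostly ligands of the member receptors, such as the VEGF and angiopoietin genes. It also held Hgf, which is in the stellate list too and whose receptor is not a member. The 14 listed names include 1 gene under both its symbols. Intervals were found at 12 of them on chow (5 lower, median 0.03) and 11 on HFD (median -0.03), and none was called. Gdf2, which encodes the ENG ligand BMP9, was at 3.20 CPM ± 0.65 (SD, n = 3) in LKO and 5.51 CPM ± 1.52 (SD, n = 3) in floxed livers on chow. This was the lowest fold change of the 12 (-0.79, SE 0.27, adjusted p 0.718, edgeR), at a low level, while 7 ligands were higher in LKO. Gdf2 had no interval on HFD. Vegfa was at 323 CPM ± 33.97 in LKO against 359 CPM ± 45.6 in floxed livers on chow.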

How the data were processed

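Open chromatin was measured by ATAC-seq in the livers of 14 mice. The authors deposited whole-number read counts per interval and library, 1 table per diet, on mm10 coordinates per the labels. The submitters' processing notes list Bowtie2 2.4.2, Trim Galore 0.6.7, HOMER 4.11, MACS2 2.2.7.1 and bedtools but not what each did. No source used here gives the treatment of duplicates, any shift of cut sites or the pooling for peak calling. Intervals come from peaks of these same libraries, so weak regions may be missing.

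HFD columns match single labels. Chow columns give a genotype and number that differ from the labels' names, and were used by group. Libraries are read as 1 mouse each, and p-values measure the spread between these samples. No 2 libraries within a group agreed to sampling noise (chi-square per degree of freedom of 2.49 or more). On chow, samples with the same column number had correlated deviations from group means (0.196, 0.536 and 0.196). The numbers were therefore used there to describe pairs and as a block in an alternative fit, though no label states a pairing. The main fits within each diet used genotype alone. Deviations cancel out within a group, so the libraries numbered 2 alone could raise the other values. Differently numbered libraries were not compared. The blocked values stand beside the chow counts they move. On HFD the correlations were -0.0137 to 0.181, and the numbers were not treated as pairs.

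Counts were fitted per table with edgeR 4.0.16 in R 4.3.3 (TMM, filterByExpr, which removed nothing, quasi-likelihood test, Benjamini-Hochberg at 0.05), per interval and on reads summed per gene. The diet difference used intervals of both tables overlapping by at least 50%, in 1 fit of 14 libraries. limma 3.58.1 (quality-weighted voom) and DESeq2 1.42.0 were alternatives, and the fits were tested on simulated data. Coordinates are 1-based.

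Members, lists and motifs were chosen with earlier results of these data known. Values in every library are given for members with a called interval or gene and for the 8 members per diet with the largest gene fold change in size and a mean of at least 1 CPM, and also for the member interval with the smallest p in each table. Alternatives were other scaling, no filter, a minimum mean of 1 CPM, the replicate block, other assignments, left-out libraries and 80% overlap.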

Additional observations from a re-analysis of the deposited data

Results flagged for a closer look

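Each group of 4 HFD libraries was checked for a library far from the other 3, over the members' summed reads, the called Eng interval and the marker lists. Of 86 such group values, 2 stood out, with a Dixon ratio (gap to the nearest library over the whole range) above its 95% critical value, and chance flags about 1 in 20. At Stab2, the hyaluronan scavenger receptor, LKO 3 was at 148 CPM while the other LKO libraries were at 162 to 164 CPM (ratio 0.895). At Kdr, which encodes VEGFR2, floxed 3 was at 81.0 CPM while the other floxed libraries were at 60.2 to 63.1 CPM (ratio 0.860). Floxed 3 also had the highest summed endothelial level of its group and the lowest hepatocyte sum, and LKO 3 the lowest hepatocyte sum of its own; their part in these values was not tested.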

How the results depend on the processing

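Counts over whole tables moved most. Chow intervals called were 20, against 126 with the replicate block, 544 with DESeq2, 677 with limma, 333 without both libraries numbered 2, and 0 to 604 with 1 library left out. Chow genes called were 0, against 8 with the block, 39, 1, 7, and 0 to 22. Of chow member intervals, 4 were called with limma and 0 otherwise; no alternative called a member gene in either diet, or a member in the diet difference. HFD intervals called were 795, against 1420 with the block, 1883 without LKO 1 and floxed 3, and 304 to 1189. HFD genes called were 56, against 351 with the block, 124 with DESeq2, 321 without that pair, and 17 to 191. Outside the block fits, the HFD numbers were not treated as pairing the samples. The Eng call, 1 on HFD, became 0 with limma, without that pair, and in 7 of 8 fits that left out 1 library (0 to 1). Diet differences called were 133, against 283 with DESeq2, 303 with the block, and 79 to 365. The chow median over member intervals stayed below 0 in each fit, from -0.294 without LKO 2 to -0.0556 without floxed 2; with the block it was -0.157. The HFD members' summed level difference of -0.03 changed sign without LKO 2 or floxed 3 (0.01 in each) and without LKO 1 and floxed 3 together (0.00). Causes were not tested. At 7.59 to 10.4 M reads per HFD library, the called Eng interval's LKO levels of 1.96 to 2.76 CPM rest on few reads.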
